A study of Rattus norvegicus with 9 samples.

Results

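A set of 10 genes of prostaglandin biology were followed across the rat knee libraries: the cyclooxygenases Ptgs1 and Ptgs2, the terminal synthases Ptges, Ptgis and Ptgds, the prostaglandin E2 receptors Ptger1, Ptger2, Ptger3 and Ptger4, and the degrading enzyme Hpgd. They were selected by gene symbol, and all 10 were among the 17602 genes of the table and among the 16512 genes tested. RNA came from 9 libraries in 3 groups of 3, all from wild-type (WT) male Lewis rats aged 10–12 weeks. The sequencing part of the study compared the tissue that regrows after partial removal of the meniscus with synovium, the membrane lining the joint. The intact group was synovium from around the medial meniscus of knees without surgery. For the sham group, synovium of that same region was collected 1 week after opening and closing of the joint capsule. For the pMx group, partial medial meniscectomy removed the anterior part of the medial meniscus, and the tissue regrowing there was taken 1 week later with the synovium around it trimmed away. Surgery and the tissue sampled therefore changed together between sham and pMx, and their effects cannot be told apart. RNA integrity as listed by the study also differed by group, lowest in intact and highest in pMx, and cannot be told apart from the group either. The labels name the 3 libraries of a group as biological replicates without saying whether each came from 1 animal or a pool. Meniscectomy was done on both knees of an animal, and whether any libraries shared an animal is not stated either.

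Prostaglandins are lipid mediators made from arachidonic acid, which phospholipases release from membranes. A cyclooxygenase (COX) converts it to prostaglandin H2, and terminal synthases turn this intermediate into prostaglandin E2 (PGE2), prostacyclin, prostaglandin D2 and other products. Ptgs1 encodes the enzyme present in many resting tissues, and Ptgs2 encodes the enzyme that cytokines, growth factors and mechanical load induce. In joints PGE2 is known for its part in pain, vasodilation and matrix turnover, it acts through 4 receptors coupled to different G proteins, and Hpgd begins its breakdown.

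The stretches upstream of Ptgs1, Ptgs2 and Ptges are shown because these are the constitutive and the inducible entry enzyme and the PGE2 synthase. The sequences are the 250 bases before the RefSeq transcription start on the rat assembly GRCr8, written 5′ to 3′ on the gene's strand. Of the 10 genes, 9 had an entry in the RefSeq promoter table, and Ptgis had none. Capitals mark exact matches, on either strand, to 5 motifs: TATAAA, the core of a common promoter element; CACGTG, the E-box; TGACTCA, known from AP-1; CGTCA, part of the cAMP response element; and CCGCCC, the GC box. None of the 5 motifs contains another.
Ptgs1, chr3:39981169-39981418, plus strand: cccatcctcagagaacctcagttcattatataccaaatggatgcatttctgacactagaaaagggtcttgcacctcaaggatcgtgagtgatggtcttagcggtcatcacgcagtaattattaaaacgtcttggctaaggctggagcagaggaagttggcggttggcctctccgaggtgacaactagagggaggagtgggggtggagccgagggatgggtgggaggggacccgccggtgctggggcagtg
Ptgs2, chr13:64713813-64714062, plus strand: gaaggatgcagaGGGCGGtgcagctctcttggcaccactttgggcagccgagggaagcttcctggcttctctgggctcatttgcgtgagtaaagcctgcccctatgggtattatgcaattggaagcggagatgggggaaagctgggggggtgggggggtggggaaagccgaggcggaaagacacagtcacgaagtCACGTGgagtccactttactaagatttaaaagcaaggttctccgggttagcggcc
Ptges, chr3:34586988-34587237, minus strand: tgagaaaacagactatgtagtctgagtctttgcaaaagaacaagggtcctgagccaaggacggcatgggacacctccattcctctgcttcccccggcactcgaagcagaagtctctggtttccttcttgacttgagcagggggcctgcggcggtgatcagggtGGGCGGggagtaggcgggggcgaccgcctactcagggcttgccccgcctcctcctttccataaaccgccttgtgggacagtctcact
The Ptgs2 stretch held the E-box CACGTG from 55 to 50 bases before the start and GGGCGG, the GC box read on the other strand, from 238 to 233 bases before it. The E-box was present in 5.59% of the 33469 promoters of this length in the table and the GC box in 30.5%. The Ptges stretch held 1 GC box, and none of these letters occurred in the Ptgs1 stretch. TATAAA was found in 12.9% of all promoters, TGACTCA in 4.05% and CGTCA in 18.2%. Among the others, Ptger3 had 3 GC boxes, Ptgds 2 that overlapped, Ptger1 1 and Hpgd 1 GC box with 1 CGTCA, and the stretches of Ptger2 and Ptger4 had no match. A match of letters is a description and shows no binding, and no expression difference was tied to it.

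Levels are in TPM, transcript abundance scaled for length and to a fixed total, so that genes can be compared within a library. Fold changes are differences of mean log2(TPM + 1), which understate changes of genes near 0, and adjusted p values are from limma with Benjamini-Hochberg adjustment over the 16512 genes. A gene was said to rise or fall at an adjusted p below 0.05, and it was called a differentially expressed gene (DEG) when its absolute log2 fold change was also above 1. The number of reads behind TPM values is unknown. Synovial markers were present in every library, with the summed TPM of 4 lining markers between 2757 and 3762 in intact, 1511 and 1936 in sham and 1157 and 1836 in pMx. Most of this sum was Prg4, the lubricin gene, at a mean of 1315 TPM in sham and 1453 in pMx (adjusted p = 0.680 in limma), whereas the other 3 markers fell from sham to pMx: Clic5 from 239 to 13.1 TPM, Hbegf from 130.3 to 63.3 and Tspan15 from 18.1 to 9.54. One intact library stood apart, because 6 skeletal muscle markers summed to 30643 TPM in intact replicate 3 and to between 26.0 and 1997 TPM in the other 8 libraries. Where leaving out this library moved a member's call or direction, the value without it is given too. In bulk tissue, fewer cells of a type and less RNA per cell cannot be told apart.

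The profile of pMx tissue differed from that of sham synovium chiefly in 3 genes: Ptgs2 was 13.9-fold higher by mean TPM, Ptgis 7.64-fold lower and Ptger3 33.4-fold lower. These were the members called DEGs, 3 of 10 where 8.21% of all tested genes were called. At adjusted p alone 6 of 10 differed, 3 higher (Ptgs2, Ptger4, Hpgd) and 3 lower (Ptgs1, Ptgis, Ptger3), beside 36.6% of all tested genes. The pMx and sham libraries did not overlap for 8 of the 10 genes, which held for 56.1% of tested genes. The median log2 fold change of the 10 genes was -0.34 beside -0.01 for all tested genes. Between sham and intact synovium Ptgs1 fell and Hpgd rose, 2 of 10 beside 12.7% of tested genes. No member was a DEG in that comparison in limma, 4 had an unadjusted p below 0.05, and 1.96% of tested genes were DEGs. Sham and intact did not overlap for 4 genes, beside 30.6% of tested genes. Between pMx and intact 7 of 10 differed at adjusted p (50.6% of tested genes), 6 were DEGs (14.3%) and 9 did not overlap (57.5%). Without intact replicate 3 the DEGs of pMx against intact were Ptgs1, Ptgs2, Ptgis, Ptger1, Ptger3 and Hpgd, as with it. In sham against intact, Ptgs1 (-0.52, adjusted p = 0.00652 in limma) and Hpgd (0.42, adjusted p = 0.0147) still passed without that library. Ptger3 passed there too (-0.46, adjusted p = 0.0269 in limma). Over all fits that left out 1 library, Hpgd no longer passed in 7 of 9. The 3 comparisons share groups, so their counts are not independent.

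**Figure D1:**
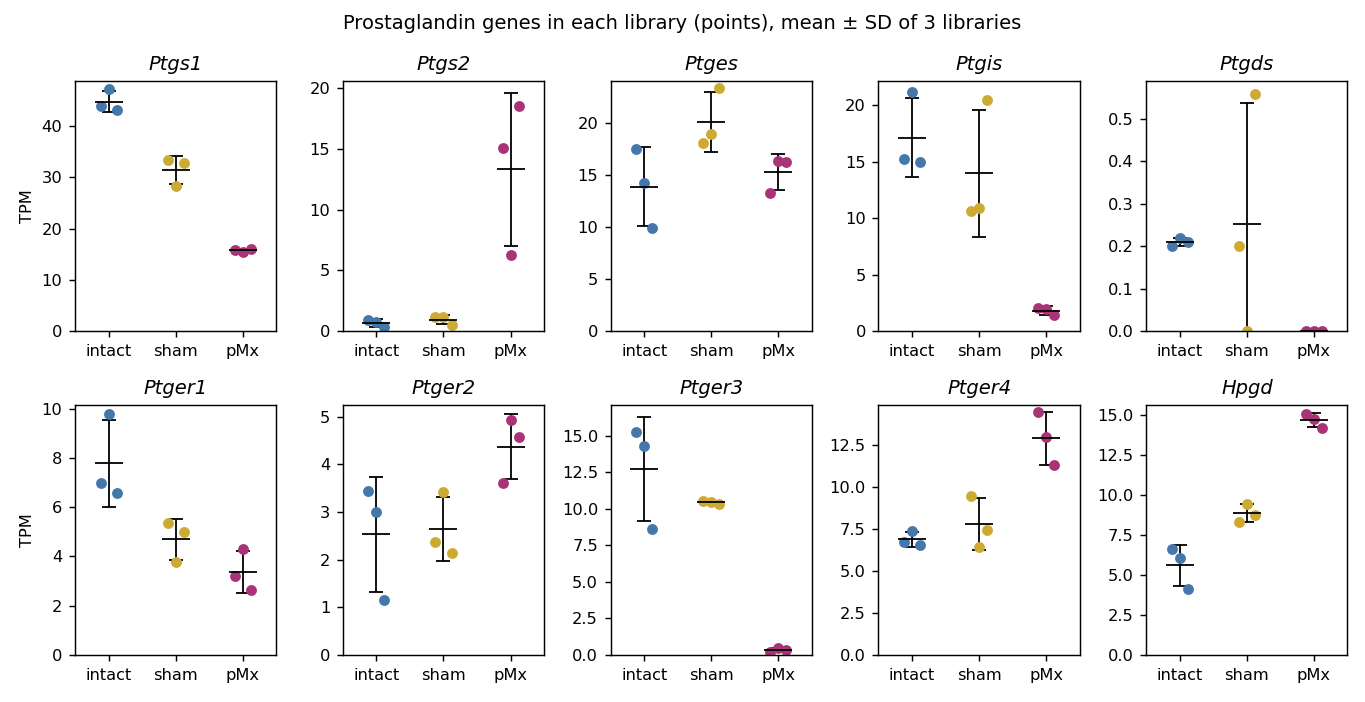
TPM of the 10 prostaglandin genes in each of the 9 libraries, 1 panel per gene, with the vertical axis in TPM and the 3 groups on the horizontal axis. Points are libraries and the horizontal bars are group means with SD. The 3 pMx points of Ptgs2 lie at 6.30 TPM or above and every other point at 1.18 or below, whereas the pMx points of Ptger3 lie at 0.44 or below.

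Ptgs1, the constitutive cyclooxygenase (gene ID 24693), was the highest of the 10 genes by mean level in every group. It measured 44.01, 47.19 and 43.16 TPM in intact replicates 1 to 3, 33.36, 28.36 and 32.82 in sham, and 15.86, 15.37 and 16.07 in pMx. The 3 groups did not overlap, and the order was intact, sham, pMx. Ptgs1 fell from sham to pMx by 0.95 on the log2 scale (SE 0.07, adjusted p = 5.57e-05), just inside the DEG limit, and without sham replicate 2 the decrease was 1.02 and the gene was called. It fell from intact to sham by 0.50 (adjusted p = 0.00690), and pMx against intact gave a log2 fold change of -1.45 (adjusted p = 3.30e-06).

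Ptgs2, the inducible cyclooxygenase (gene ID 29527), was near the bottom of the order in both kinds of synovium. Its levels were 0.92, 0.79 and 0.34 TPM in intact, 1.16, 1.18 and 0.54 in sham, and 15.09, 6.30 and 18.52 in pMx. All pMx libraries were above all others, with pMx replicate 2 well under the other two, and sham and intact overlapped. The mean was 13.3 ± 6.30 TPM (SD, n = 3) in pMx against 0.960 ± 0.364 in sham, a log2 fold change of 2.77 (SE 0.35, adjusted p = 0.000457 in limma). Leaving out 1 library at a time gave 2.49 to 3.19. Sham against intact gave 0.22 (95% confidence interval -0.57 to 1.01, adjusted p = 0.729 in limma), and pMx against intact gave 2.99 (adjusted p = 0.000148).

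Between sham and pMx Ptgs1 fell and Ptgs2 rose, and the mean of their summed TPM moved less than either. The sum was 45.5 ± 2.29 TPM in intact, 32.5 ± 2.61 in sham and 29.1 ± 6.66 in pMx (SD, n = 3). Ptgs2 made up 2.05%, 1.65% and 0.782% of that sum in the intact libraries, 3.36%, 3.99% and 1.62% in sham, and 48.8%, 29.1% and 53.5% in pMx. The pMx shares were all far above the synovial ones. The mean share differed by 40.8 percentage points between pMx and sham (exact permutation test, two-sided, p = 0.1, which is the lowest value possible with 3 against 3 libraries). Sham and intact differed by 1.50 points (exact permutation p = 0.3), and pMx and intact by 42.3 points (exact permutation p = 0.1). The p values of the shares were not adjusted for the 3 comparisons, and none could pass 0.05.

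**Figure D2:**
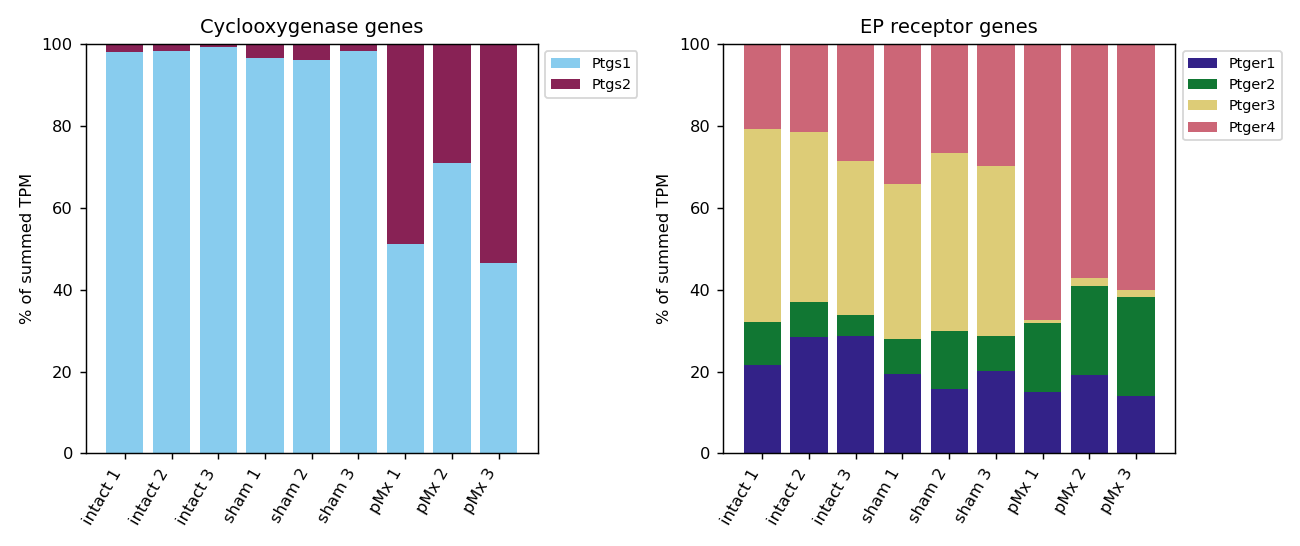
Share of cyclooxygenase TPM from Ptgs2 and shares of EP receptor TPM from each Ptger gene, in percent, for each of the 9 libraries. Ptgs2 took between 29.1% and 53.5% of cyclooxygenase TPM in pMx and at most 3.99% elsewhere, and Ptger3 gave way to Ptger4 as the leading receptor transcript in pMx.

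Ptges encodes the inducible microsomal synthase that converts prostaglandin H2 to PGE2 (gene ID 59103). It stood at 17.48, 14.23 and 9.88 TPM in intact, 18.01, 18.90 and 23.33 in sham, and 13.26, 16.31 and 16.23 in pMx. The sham libraries were the highest and did not overlap either other group, and intact spanned the pMx range. The pMx-to-sham log2 fold change was -0.37 (95% confidence interval -0.81 to 0.07, adjusted p = 0.167 in limma) and the sham-to-intact value was 0.53 (adjusted p = 0.108). Neither passed with all libraries, but the pMx-to-sham adjusted p was 0.0469 in limma without intact replicate 3 and 0.0445 when only the 6 libraries compared were fitted. Sham against intact passed without intact replicate 1 (adjusted p = 0.0426 in limma) and was 0.32 without intact replicate 3 (adjusted p = 0.162). For pMx against intact, the value of 0.16 became -0.050 without intact replicate 3, neither past the threshold.

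Ptgis, the prostacyclin synthase (gene ID 25527), is known from endothelium and smooth muscle, where its product relaxes vessels. Levels were 15.24, 21.13 and 14.98 TPM in intact, 10.59, 10.90 and 20.46 in sham, and 2.08, 1.99 and 1.42 in pMx. Every pMx library was below every synovial library, and sham replicate 3 was close to intact replicate 2 while the other sham libraries were lower. From sham to pMx the mean went from 14.0 ± 5.61 to 1.83 ± 0.358 TPM (SD, n = 3), and Ptgis fell by 2.35 on the log2 scale (SE 0.25, adjusted p = 0.000201 in limma). Against intact the pMx value was -2.67 (adjusted p = 4.32e-05), and sham against intact gave -0.32 (adjusted p = 0.447).

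Ptgds encodes the lipocalin-type synthase of prostaglandin D2 (gene ID 25526) and was the lowest of the 10 genes in every group. It was listed at 0.20, 0.22 and 0.21 TPM in intact, at 0.20, 0 and 0.56 in sham, and at 0 in all 3 pMx libraries. No fold is given against the zeros, and none of the 3 comparisons passed (adjusted p = 0.117, 0.923 and 0.123 in limma for pMx against sham, sham against intact and pMx against intact). At this level the outcome depended on the settings. Comparing pMx with intact, Ptgds was called with a pseudocount of 0.1 or 0.01. The adjusted p of that comparison passed in the fit of the 6 libraries compared (0.00501 in limma) and without sham replicate 2 (0.0409) or 3 (0.0148), and pMx against sham passed without sham replicate 2 (0.0139).

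**Figure D3:**
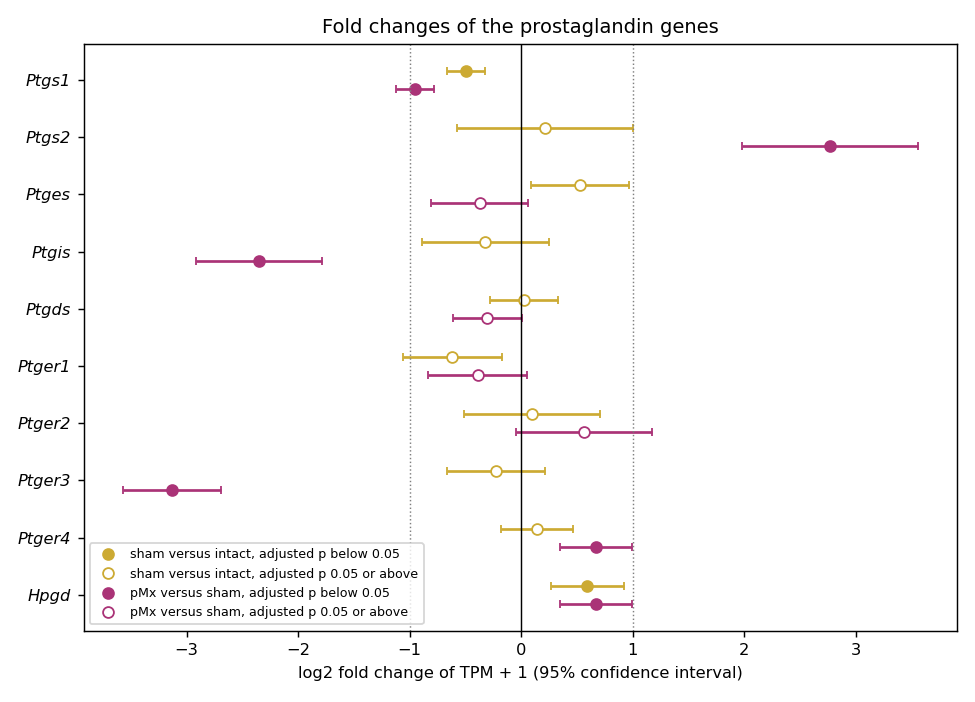
Log2 fold changes of the 10 genes for pMx versus sham and sham versus intact, with 95% confidence intervals from limma; filled points have an adjusted p below 0.05 and dotted lines mark the DEG limits of -1 and 1. Ptgs2 lies to the right of the upper limit and Ptgis and Ptger3 to the left of the lower one for pMx versus sham, and no filled point of sham versus intact lies beyond a limit.

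Among the PGE2 receptors (EP receptors), Ptger3 led in synovium and Ptger4 led in pMx tissue. Ptger3 encodes EP3, which mainly couples to the inhibitory G protein and lowers cAMP (gene ID 24929). It measured 15.26, 14.32 and 8.63 TPM in intact, 10.53, 10.49 and 10.35 in sham, and 0.17, 0.44 and 0.33 in pMx. The pMx libraries were all below 1 TPM and the synovial libraries all above 8, with intact replicate 3 the lowest of these. Ptger3 fell by 3.13 on the log2 scale from sham to pMx (SE 0.19, adjusted p = 2.63e-05 in limma), and the pMx-to-intact value was -3.35 (adjusted p = 4.73e-06). Sham against intact gave -0.22 (adjusted p = 0.490), which became -0.46 with an adjusted p of 0.0269 without intact replicate 3.

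Ptger4 encodes EP4, a receptor that raises cAMP (gene ID 84023). Its levels were 6.69, 7.37 and 6.54 TPM in intact, 9.45, 6.40 and 7.42 in sham, and 14.42, 12.94 and 11.28 in pMx. The pMx libraries were the 3 highest, and sham overlapped intact. Ptger4 rose by 0.67 from sham to pMx (SE 0.14, adjusted p = 0.00626 in limma), a 1.66-fold higher mean, and sham against intact gave 0.14 (adjusted p = 0.565).

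Ptger2 encodes EP2, the other receptor that raises cAMP (gene ID 81752). It was listed at 3.43, 2.99 and 1.16 TPM in intact, 2.37, 3.41 and 2.14 in sham, and 3.61, 4.93 and 4.57 in pMx. All pMx values were above all others, with a narrow gap to intact replicate 1. The pMx-to-sham log2 fold change of 0.57 did not pass (adjusted p = 0.133 in limma), but it did without intact replicate 3 (adjusted p = 0.0192) and in the fit of the 6 libraries compared (adjusted p = 0.0269). Sham against intact gave 0.10 (adjusted p = 0.855), which became -0.22 without intact replicate 3 and -0.050 without sham replicate 2. For pMx against intact it was 0.67 (adjusted p = 0.0673), which passed without intact replicate 1 (adjusted p = 0.0324) and after median-of-ratios rescaling (adjusted p = 0.0439), and which was 0.34 without intact replicate 3 (adjusted p = 0.130).

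Ptger1 encodes EP1, which is linked to calcium signaling (gene ID 25637). It measured 6.96, 9.79 and 6.58 TPM in intact, 5.34, 3.76 and 4.99 in sham, and 3.20, 4.31 and 2.62 in pMx. Intact was above both operated groups, and sham and pMx overlapped. Neither single step passed, with -0.39 for pMx against sham (adjusted p = 0.156 in limma) and -0.62 for sham against intact (adjusted p = 0.0734). Across both, pMx against intact gave -1.004 (adjusted p = 0.00264), so close to the DEG limit that the call was lost after median-of-ratios rescaling and without intact replicate 2, pMx replicate 1 or pMx replicate 3.

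As a share of summed EP receptor TPM, Ptger3 went from 42.1% in intact and 41.1% in sham to 1.50% in pMx, as means of 3 libraries. Ptger4 took 23.5%, 30.2% and 61.5% in the same order, Ptger2 8.11%, 10.4% and 21.0%, and Ptger1 26.2%, 18.3% and 16%. The summed level was 29.9 ± 6.15 TPM in intact, 25.6 ± 1.90 in sham and 20.9 ± 1.95 in pMx (SD, n = 3). Every pMx sum (18.8 to 22.6 TPM) was below every synovial sum (22.9 TPM or above), so shares and TPM need not move alike. These shares were not tested. In RefSeq, Ptger2 and Ptger4 each overlap a long noncoding RNA gene and Ptger3 a pseudogene, and how the counting assigned shared reads is not given in the sources used here.

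Hpgd encodes 15-hydroxyprostaglandin dehydrogenase, the enzyme that begins PGE2 inactivation (gene ID 79242). It stood at 6.61, 6.07 and 4.14 TPM in intact, 8.33, 9.46 and 8.78 in sham, and 15.04, 14.78 and 14.22 in pMx. The 3 groups did not overlap, in the order intact, sham, pMx, opposite to that of Ptgs1. Hpgd rose by 0.67 from sham to pMx (SE 0.14, adjusted p = 0.00660 in limma) and its pMx-to-intact value was 1.27 (adjusted p = 0.000125). The rise of 0.60 from intact to sham (adjusted p = 0.0314) was less firm, since it no longer passed in 7 of the 9 fits that left out 1 library (highest adjusted p 0.109) or in the fit of the 6 libraries compared (adjusted p = 0.0916). The leave-one-out fits that kept it were those without intact replicate 1 or intact replicate 3.

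By level, the order in sham was Ptgs1, Ptges, Ptgis, Ptger3, Hpgd, Ptger4, Ptger1, Ptger2, Ptgs2 and Ptgds. Neighbors overlapped between Ptges and Ptgis, Hpgd and Ptger4, and Ptgs2 and Ptgds, and the other neighboring pairs did not. In intact the order was Ptgs1, Ptgis, Ptges, Ptger3, Ptger1, Ptger4, Hpgd, Ptger2, Ptgs2 and Ptgds, where each neighboring pair from Ptgis to Hpgd overlapped. In pMx it was Ptgs1, Ptges, Hpgd, Ptgs2, Ptger4, Ptger2, Ptger1, Ptgis, Ptger3 and Ptgds. The first 5 of these overlapped in succession, with means between 12.9 and 15.8 TPM, and Ptger2 overlapped Ptger1. Ptgs2 was thus ninth in both kinds of synovium and among 5 genes of overlapping level in pMx tissue.

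The wider pathway was read from 46 other genes in 6 lists, of which 42 were tested. In pMx against sham 18 of 42 differed at adjusted p, 3 higher and 15 lower, and all 9 DEGs were lower. The background was 17.7% of tested genes higher and 18.9% lower at adjusted p, and 4.85% lower DEGs. These shares also stand beside the counts of the 6 single lists below, several of which lie near them. The median log2 fold change of the 42 genes was -0.22, beside -0.01 for all tested genes. Leaving out 1 library gave 0 to 5 higher and 11 to 16 lower genes, with the fewest without sham replicate 3 (0 higher, 11 lower) and 1 higher with 11 lower without pMx replicate 1. Between sham and intact 8 of 42 differed (12.7% of all tested genes), 3 higher and 5 lower, and the single DEG was Pla2g2a (1.96% of all tested genes). That count of 8 was 6 without intact replicate 1 (3 higher, 3 lower) and again 8 without intact replicate 3 (1 higher, 7 lower). It was between 1 and 5 when any other library was left out.

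Upstream of the cyclooxygenases, 4 of 8 tested genes for arachidonate release fell from sham to pMx and none rose. Pla2g2a, a secreted phospholipase A2, went from 40.0 ± 13.3 to 3.44 ± 1.20 TPM (log2 fold change -3.18, adjusted p = 0.000151 in limma). It also fell from 118 ± 37.8 TPM in intact to sham by 1.55 on the log2 scale (adjusted p = 0.0193), a call lost without sham replicate 2 (adjusted p = 0.0559). Plaat3, a phospholipase abundant in fat and the highest gene of this list, measured 306 ± 45.5 TPM in sham and 47.9 ± 4.38 in pMx (log2 fold change -2.64, adjusted p = 3.86e-05). Mgll, the monoacylglycerol lipase, and Pla2g5, another secreted phospholipase, fell by 1.78 and by 1.57 on the log2 scale. Pla2g4a, the cytosolic phospholipase A2 that supplies cyclooxygenases in many cells, did not pass in this comparison (17.5 TPM in sham and 22.6 in pMx, log2 fold change 0.35, adjusted p = 0.113 in limma), but it did without intact replicate 3 (adjusted p = 0.0471).

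Among 7 other prostanoid synthases, 1 rose and 1 fell from sham to pMx, and none rose without sham replicate 1, sham replicate 3 or pMx replicate 1. Hpgds, the hematopoietic prostaglandin D2 synthase of mast cells and macrophages, measured 9.93, 7.59 and 11.11 TPM in sham and 0.11, 0.02 and 0.17 in pMx. The groups were far apart, with a log2 fold change of -3.25 (SE 0.16, adjusted p = 1.16e-05 in limma). Akr1b1, an aldose reductase that also makes prostaglandin F2α and the highest gene of this list, stood at 213 ± 8.21 TPM in sham and 204 ± 1.79 in pMx (adjusted p = 0.333 in limma). Of 5 receptors for other prostanoids 1 fell and 4 did not pass, among them Ptgir, the prostacyclin receptor, at 9.59 ± 0.885 and 10.9 ± 1.43 TPM (adjusted p = 0.449). The receptor that fell averaged only 0.510 TPM in sham and 0.0667 in pMx. It no longer passed in 5 of the 9 fits that left out 1 library. Transport and inactivation had 4 of 5 tested genes past the threshold, 1 higher and 3 lower. This count was 1 without sham replicate 3 or pMx replicate 2, and 2 without sham replicate 2 or pMx replicate 1. The highest of the list, the prostaglandin transporter Slco2a1, did not pass (adjusted p = 0.950).

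The list of cytokines known to induce Ptgs2 and of their receptors had 1 of 7 tested genes higher and 1 lower. Tnfrsf1a, the main tumor necrosis factor receptor and the highest of this list, rose by 0.32 from 147 ± 15.4 to 183 ± 12.4 TPM (adjusted p = 0.0467 in limma), which no longer passed in 6 of 9 fits without 1 library. Il1b measured 5.13, 5.01 and 5.15 TPM in sham and 2.79, 5.57 and 4.28 in pMx (adjusted p = 0.310 in limma). Il6 and Tnf were at or below 2.47 TPM in all 6 of these libraries and did not pass (adjusted p = 0.166 and 0.454). Il1b, Il6 and Tnf are named because they are the cytokines themselves, a choice made after their values were seen, as was that of Pla2g4a.

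In the lipoxygenase and leukotriene branch, which competes for arachidonic acid, 5 of 10 genes fell from sham to pMx and none rose. Without intact replicate 1 or intact replicate 3, 1 gene passed as higher, and without sham replicate 2 the number lower was 6. Ltc4s, the leukotriene C4 synthase and the highest gene of this list, went from 155 ± 22.7 to 42.9 ± 9.16 TPM (log2 fold change -1.84, adjusted p = 0.000303 in limma). Alox5, the 5-lipoxygenase that starts leukotriene synthesis, fell by 1.37 (adjusted p = 0.000728), and Cysltr1, a receptor for cysteinyl leukotrienes, fell by 1.22 (adjusted p = 7.59e-05). Alox15, another lipoxygenase, fell by 1.07 (adjusted p = 0.00998), and its DEG call was lost without sham replicate 3.

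**Figure D4:**
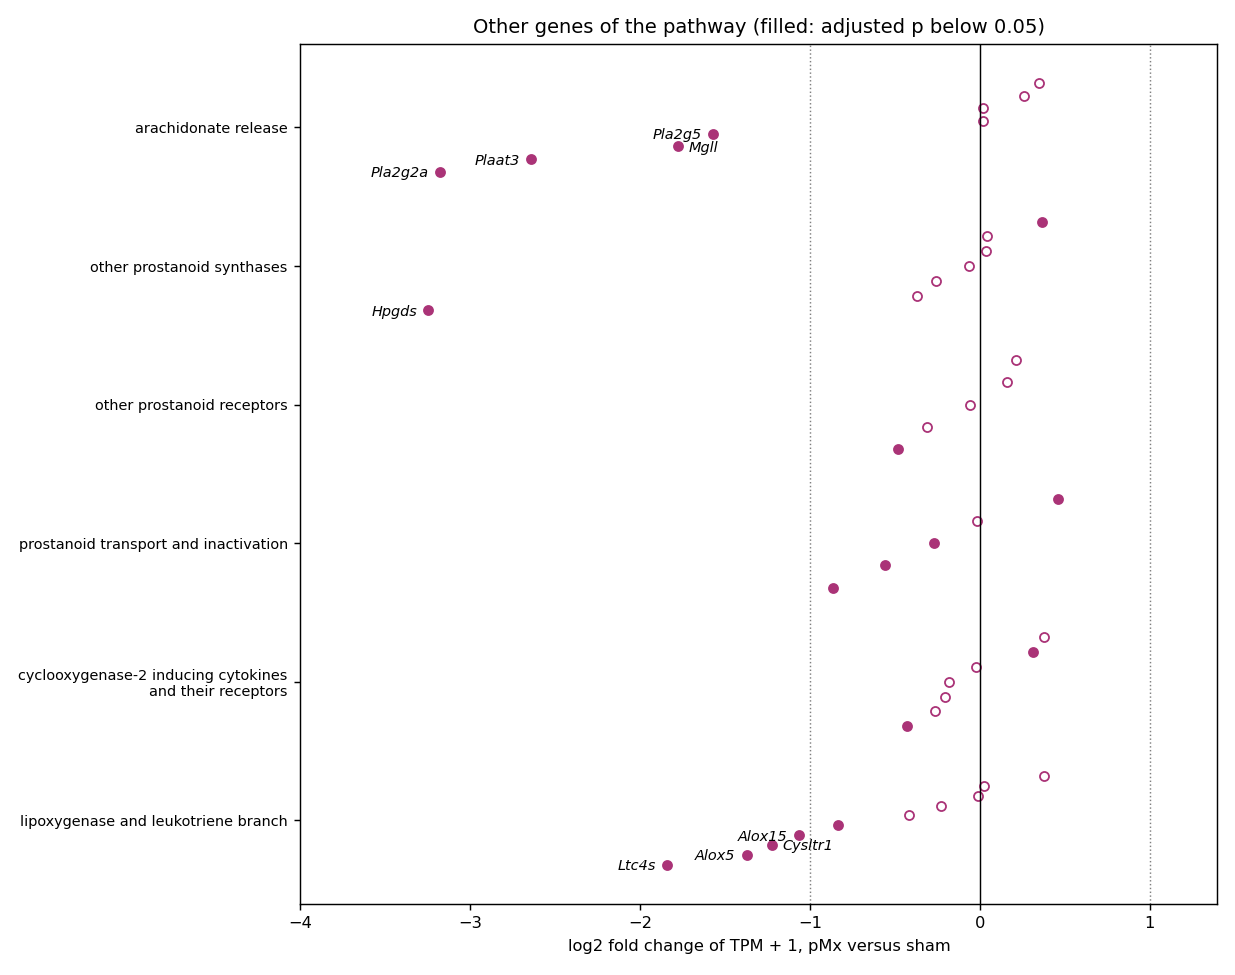
Log2 fold change from sham to pMx of the 42 tested genes in 6 lists of the wider pathway, with DEGs labeled, filled points for an adjusted p below 0.05 and dotted lines at -1 and 1. All 9 labeled genes lie below -1, in the lists for arachidonate release, other synthases and the lipoxygenase branch.

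Markers of several cell types moved together with these genes between sham and pMx. The summed TPM of 5 adipocyte markers was 4278 to 4610 in sham and 302 to 475 in pMx, that of 6 mast cell markers 110 to 182 and 8.85 to 11.0, and that of 4 Schwann cell markers 108 to 153 and 7.15 to 9.08. For 4 smooth muscle markers the sums were 1835 to 2175 in sham and 763 to 853 in pMx. Acta2 made up most of this sum, and 3 of the 4 fell while Des (195 to 206 TPM) did not pass. Of all libraries, Des was highest (724 TPM) in intact replicate 3, the one with the large skeletal muscle sum. For 5 endothelial markers the sums overlapped, at 513 to 540 TPM in sham and 417 to 524 in pMx. Tek and Emcn fell, Pecam1 did not pass, and Cdh5 (113 to 142 TPM) and Kdr (21.2 to 28.7) were higher in pMx without passing. Ptgs1, Ptgis, Ptger3 and the 9 other pathway DEGs fell in the same libraries as the adipocyte, mast cell, Schwann cell and smooth muscle sums. Any gene lower in pMx than in sham shares that pattern. In the other direction, 4 fibrocartilage markers summed to 499 to 599 TPM in sham and 974 to 1176 in pMx, as Ptgs2, Ptger4 and Hpgd rose. Of these 4, Sox9 (0.947 to 5.18 TPM) and Acan (21.9 to 208) rose. Comp (512 to 840), which made up most of the sum, and Col2a1 (0.953 to 0.697) did not pass. The sum of 6 synovial fibroblast markers was 1360 to 1767 TPM in sham and 3414 to 3566 in pMx, but its members were split. Thy1 (326 to 1037 TPM) and Col6a1 (893 to 2144) rose, Dpp4 (7.66 to 0.747) and Pi16 (124 to 33.5) fell, and Pdgfra and Pdpn did not pass. For 6 macrophage markers the sums overlapped, at 1117 to 1131 TPM in sham and 834 to 1117 in pMx, while Cd163 fell from 27.2 to 5.05 TPM, Cd68 rose from 150.4 to 209 and the other 4 did not pass. Neutrophil markers, 4 in number, summed to 39.7 to 50.4 TPM in sham and 8.17 to 24.4 in pMx, and only Mpo fell (11.8 to 0.0567). The other neutrophil markers did not pass, with S100a8 and S100a9 lower and Csf3r higher in pMx (2.19 to 3.51 TPM). No marker of these lists was at 0 in all pMx libraries, and the part of these cell types in the results was not tested.

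**Figure D5:**
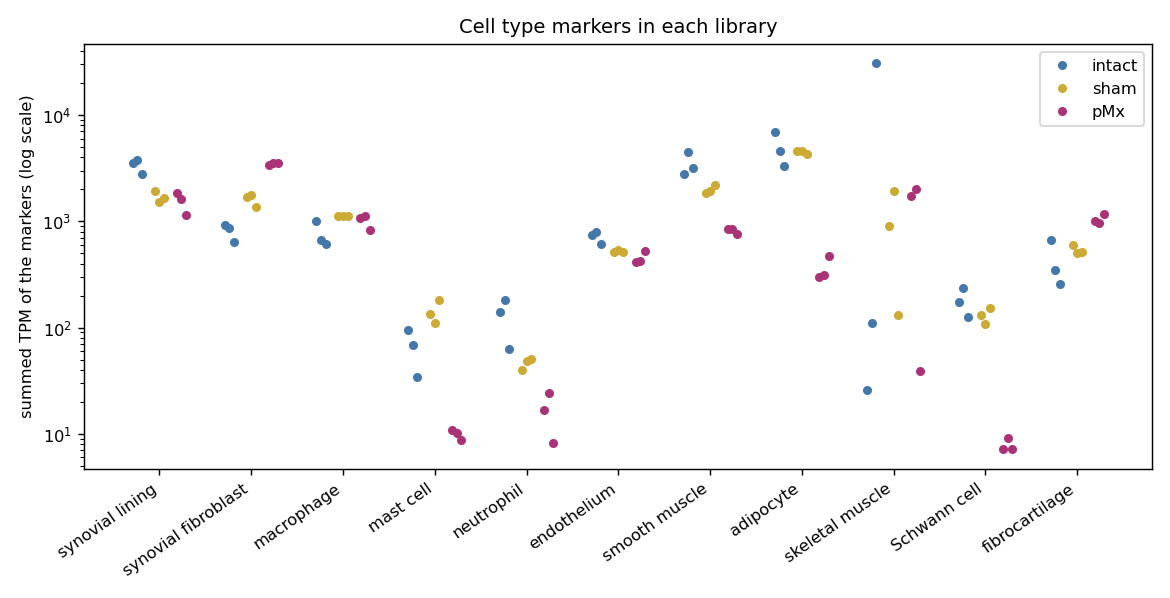
Summed TPM of the cell type marker lists in each of the 9 libraries, on a logarithmic vertical axis. Adipocyte, mast cell and Schwann cell sums are lowest in the 3 pMx libraries, fibroblast and fibrocartilage sums are highest there, and the skeletal muscle sum of intact replicate 3 stands far above all others.

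The genes whose patterns lay closest to the 3 DEGs were ranked by the root-mean-square difference of log2(TPM + 1) centered on each gene's mean, over 9 libraries and the 13203 other genes with a mean of at least 1 TPM. For Ptgs2 they were Ca9, a carbonic anhydrase (0.353), Col8a2, a collagen chain (0.406), and Lrrn4 (0.428). Ca9 averaged 0.530 TPM in intact, 1.07 in sham and 20.0 in pMx, near the levels of Ptgs2 itself. Ptgis lay closest to Ak5, an adenylate kinase (0.175), Abca8a, a membrane transporter (0.224), and Adcy5, an adenylate cyclase (0.226). Ptger3 lay closest to LOC103689947 (0.163), to Mbp, a myelin protein and one of the Schwann cell markers above (0.180), and to Tst, a sulfurtransferase (0.199). These distances are a description over 9 libraries in 3 groups, and most of each pattern is the step between pMx and the synovial groups.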

How the data were processed

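RNA from 9 libraries in 3 groups was captured with oligo-dT, made into strand-specific libraries and read by BGI on a DNBSEQ instrument. The authors deposited TPM values for 17602 genes, rounded to 2 decimals and summing to about 1000000 in each library. The submitters' processing notes name HISAT2 2.0.4 and mRatBN7.2 without their role. The counting tool, annotation and filters are not given in the sources used here, and the depth is unknown, so precision is the spread over 3 libraries. Since TPM have a fixed total, a large gain in a few genes lowers the others.

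Groups and replicate numbers came from the sample titles. All 9 value columns were mapped. The 16512 genes above 0 in at least 3 libraries were taken to log2(TPM + 1) and fitted in limma 3.58.1 (R 4.3.3, lmFit, contrasts.fit, eBayes with trend), with 1 mean per group over all 9 libraries and Benjamini-Hochberg adjustment for each comparison. The DEG thresholds (0.05 for the adjusted p, 1 for the absolute log2 fold change) are those of the study, whose test is not named. Depending on how libraries were prepared, p values may measure only the spread between these samples. Shares were compared by exact permutation in SciPy 1.17.1. The calculation was tested on simulated data for pMx against sham.

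The members and lists were chosen with earlier results of these data known. Genes named from the wider lists were the DEGs of pMx against sham or sham against intact and the highest gene of each list by mean TPM. Of the 46 genes, 3 symbols were not found in the table (Pla2g10, Pla2g16, Ptgr3; Pla2g16 is an older symbol of Plaat3 and Ptgr3 a newer one of Zadh2) and Il17a was not tested. Promoters came from RefSeq (GRCr8), matched by symbol. Alternatives were a pseudocount of 0.1 or 0.01, median-of-ratios rescaling, no filter or a mean of at least 1 TPM, only the 6 libraries compared, a replicate block, the adjusted p without a fold limit, and each library left out.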

Additional observations from a re-analysis of the deposited data

How the results depend on the processing

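With adjusted p alone as the criterion, the number of members called was 6 instead of 3 for pMx against sham, 2 instead of 0 for sham against intact and 7 instead of 6 for pMx against intact. The same criterion gave 18, 8 and 21 of the other pathway genes in place of 9, 1 and 8. Over all tested genes the DEG counts of 1355, 323 and 2360 became 6046, 2097 and 8350 with adjusted p alone, 2229, 612 and 3531 with a pseudocount of 0.1, and 2303, 603 and 3662 with 0.01. Leaving out 1 library gave 3 to 4 members called for pMx against sham, 0 for sham against intact and 5 to 6 for pMx against intact. For the other pathway genes the ranges were 8 to 9, 0 to 2 and 8 to 10. At adjusted p alone the same fits gave 6 to 8, 1 to 3 and 7 to 8 members and 11 to 21, 1 to 8 and 19 to 21 other pathway genes. The Ptgs2 share of cyclooxygenase TPM then differed by 35.9 to 48.2 points between pMx and sham, by 0.998 to 2.19 between sham and intact and by 37.4 to 49.7 between pMx and intact. The sign turned for Ptgds in sham against intact with a pseudocount of 0.1 (-0.20) or 0.01 (-1.05) and over the leave-one-out fits (-0.14 to 0.18). It also turned over these fits for Ptges in pMx against intact (-0.050 to 0.33, the lowest without intact replicate 3) and Ptger2 in sham against intact (-0.22 to 0.29). None of these values passed the threshold, and the cause was not tested.

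With the replicate number as a block, the members called stayed at 3, 0 and 6 in number and the other pathway genes at 9, 1 and 8. Over all genes the block gave 1343, 297 and 2350 DEGs. Deviations of same-numbered libraries correlated at 0.03 to 0.48 for pMx and sham, where different-numbered libraries gave -0.47 to 0.31. Same-numbered values were -0.49 to 0.00 for sham and intact and -0.66 to -0.38 for pMx and intact. Different-numbered ones were -0.40 to 0.47 and -0.47 to 0.59. These values cannot settle whether pMx and sham libraries were paired. The labels name no pairs, so the numbers were not taken as pairs. TPM keep no read numbers, which leaves the counting error of the low genes Ptgds, Ptgs2 in synovium and Ptger3 in pMx unknown.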
